A study of Mus musculus with 6 samples.

Results

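The genes described here are the 5 subunits of the transcription factor NF-kB and 5 genes grouped as its inhibitors. They were measured in bone marrow-derived macrophages (BMDMs) with and without zoledronic acid (ZA). The members were chosen by symbol, as the rows of the expression table named Nfkb1, Nfkb2, Rel, Rela and Relb (subunits) and Nfkbia, Nfkbib, Nfkbie, Nfkbiz and Tnfaip3 (inhibitors). Nfkbiz is grouped with the inhibitors by gene family, although its protein also acts with NF-kB. All 10 of 10 were found among 35289 restored gene rows, and all 10 were among the 9800 genes with a mean of at least 1 FPKM that were tested. BMDMs are macrophages grown from bone marrow, here from the femurs of C57BL/6 mice cultured with M-CSF, the growth factor that drives macrophage differentiation, for 7 days. ZA is a nitrogen-containing bisphosphonate that inhibits bone resorption and blocks farnesyl diphosphate synthase in the mevalonate pathway. Bulk RNA was sequenced from 3 untreated libraries (Ctrl) and from 3 libraries of cells exposed to ZA, which the study's text places 12 h after stimulation. Neither group carried an engineered allele or another agent beyond the shared culture medium. The wild-type C57BL/6 mice of the study were obtained as females aged 6 weeks, and its text does not say whether the marrow donors were among them. The ZA concentration of these libraries and whether replicates came from separate mice or cultures are not given in the sources used here, so the p-values measure the spread between these libraries, which may be technical.

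NF-kB proteins bind DNA as pairs of Rel family subunits. In resting cells most of these pairs are kept in the cytoplasm by inhibitors of the IkB family, until a kinase complex (IKK) marks the inhibitor for degradation and the pair enters the nucleus. Several inhibitors are themselves targets of NF-kB, so that activation refills the pool that ends it, and in macrophages this loop shapes the response to bacterial products and cytokines. Transcript levels show how much message is present and not how much protein is in the nucleus.

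The values are FPKM, fragments scaled by the length of the gene and by the total of the library. Library totals, inferred from the deposited FPKM values, were between 41230600 and 42155808 fragments, and the totals of the groups overlapped. The fragment counts and counting errors given below rest on these inferred totals. Differences are on the scale of log2(FPKM + 1) as ZA minus Ctrl and are called log2 differences. They were tested two-sided with limma across all 9800 genes, with Benjamini-Hochberg adjustment over all of them. The added 1 makes them smaller than log2 fold changes, more so at low levels, so their sizes are not directly comparable between genes of unlike level. For Relb the log2 difference was 0.104 and the log2 ratio of the group means 0.132, and for Nfkb1 they were 0.084 and 0.087. A nominal p is the p-value before that adjustment. The macrophage label fitted the markers, as 8 of 8 macrophage genes had a mean of at least 1 FPKM with a sum between 23531 and 27424 FPKM in Ctrl libraries and 24407 to 27884 FPKM in ZA libraries. Of these 8 markers, 2 were higher in ZA and 0 lower at a nominal p below 0.05, the direction of the member differences. Over all genes tested, 7.5% were higher and 4.85% lower at that threshold. Of 10 neutrophil and myeloid progenitor markers, Ly6g was at 0 in every library and 6 had a mean of at least 1 FPKM and were tested. Of these 6, 4 were lower and 0 higher in ZA at a nominal p below 0.05, beside the same shares of all genes. The 10 markers summed to between 35.4 and 50.9 FPKM in Ctrl and between 31.5 and 37.1 FPKM in ZA. Stromal markers summed to between 9.65 and 19.0 FPKM in Ctrl and between 8.50 and 13.98 FPKM in ZA. The part of these markers' cells in the results below was not tested, and in bulk RNA a change in the number of cells of a type cannot be told apart from a change in RNA per cell.

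The promoters of members were searched for the kB consensus, the decamer that NF-kB pairs recognise, since several members are known targets of the factor they belong to or inhibit. RefSeq promoters of build GRCm38.p6, with 250 bases before and 50 after the start site, were matched for 7 of the 10 members and held 10 start sites, and Nfkb1, Relb and Nfkbiz had no entry. On either strand, 5 of the 7 members held at least 1 match, compared with 9.55% of 27025 genes in the same table. The sequences shown are the 250 bases upstream of the start site in Nfkbie, Nfkbia and Nfkb2, which had higher mean levels in ZA at a nominal p below 0.05, and in Rel and Tnfaip3, which hold matches but had p-values above it. They are written along the gene's strand with bases covered by a match in capitals.
Nfkbie: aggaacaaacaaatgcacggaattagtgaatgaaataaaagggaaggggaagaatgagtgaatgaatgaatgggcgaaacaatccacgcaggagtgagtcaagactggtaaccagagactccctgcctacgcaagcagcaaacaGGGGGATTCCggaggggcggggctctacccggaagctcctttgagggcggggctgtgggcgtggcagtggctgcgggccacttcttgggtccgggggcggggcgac
Nfkbia: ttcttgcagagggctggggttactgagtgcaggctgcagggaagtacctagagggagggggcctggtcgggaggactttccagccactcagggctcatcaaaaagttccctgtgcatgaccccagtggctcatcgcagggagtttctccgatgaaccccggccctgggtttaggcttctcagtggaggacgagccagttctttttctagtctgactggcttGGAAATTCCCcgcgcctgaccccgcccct
Nfkb2: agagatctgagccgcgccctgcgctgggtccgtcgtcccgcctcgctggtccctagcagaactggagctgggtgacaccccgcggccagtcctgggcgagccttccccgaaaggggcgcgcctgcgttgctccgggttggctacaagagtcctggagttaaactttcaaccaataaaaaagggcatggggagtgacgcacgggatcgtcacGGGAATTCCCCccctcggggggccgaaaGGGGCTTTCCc
Rel: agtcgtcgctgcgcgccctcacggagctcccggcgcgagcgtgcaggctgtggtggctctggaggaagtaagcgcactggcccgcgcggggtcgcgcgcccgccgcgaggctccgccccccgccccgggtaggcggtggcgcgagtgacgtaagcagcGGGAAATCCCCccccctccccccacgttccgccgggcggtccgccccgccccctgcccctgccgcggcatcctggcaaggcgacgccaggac
Tnfaip3: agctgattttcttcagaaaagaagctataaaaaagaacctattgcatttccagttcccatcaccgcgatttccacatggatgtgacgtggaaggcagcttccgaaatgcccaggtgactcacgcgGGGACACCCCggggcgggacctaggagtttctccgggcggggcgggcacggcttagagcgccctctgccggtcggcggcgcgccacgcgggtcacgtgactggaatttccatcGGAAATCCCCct
The windows are chr17:45555450-45555699 on the plus strand for Nfkbie, chr12:55492648-55492897 on the minus strand for Nfkbia, chr19:46304487-46304736 on the plus strand for the first of 3 start sites of Nfkb2, chr11:23770970-23771219 on the minus strand for Rel, and chr10:19015411-19015660 on the minus strand for the first of 2 start sites of Tnfaip3. In Nfkbie the match GGGGGATTCC began 106 bases before the start site. In Nfkbia the match read GGAAATTCCC on the gene's strand, which is the consensus on the other strand, and began 29 bases before the start. The capitals in Nfkb2 cover 3 matches, of which those beginning 39 and 38 bases before the start overlap, and the third, GGGGCTTTCC, began 11 bases before it. In Rel the capitals are 2 overlapping matches beginning 92 and 91 bases before the start, and Tnfaip3 held GGGACACCCC at 125 bases and GGAAATCCCC at 12 bases before it. The other start sites of Nfkb2 held GGAATGTCCC, 236 bases before the second, and GGGACTTTCC, a single site at chr19:46305705-46305714 that lies 10 bases past the second start and 225 bases before the third. Rela, Nfkbib and the second start of Tnfaip3 held no match in this window. Per promoter, 8.46% of the 32851 in the table held a match and 1.22% held 2 or more. These are matches of letters, not measured binding sites.

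**Figure D1:**
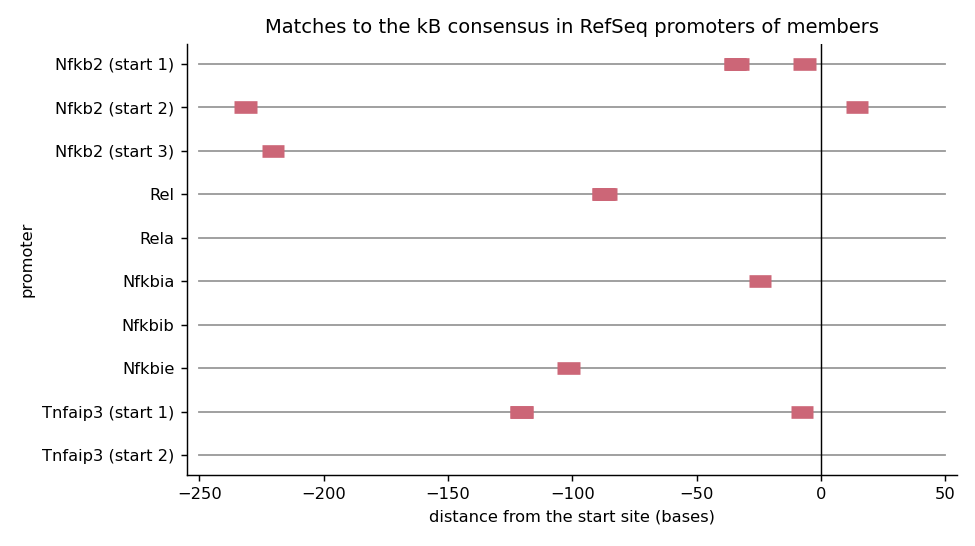
Positions of kB consensus matches (red bars, 10 bases each or merged where they overlap) in the RefSeq promoters of 7 members, with the distance from the start site in bases on the x axis and 1 line per start site. Nfkbia and the first starts of Nfkb2 and Tnfaip3 hold a match within 40 bases before the start, while Rela and Nfkbib hold none.

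None of the 10 members passed an adjusted p-value of 0.05 in limma with Benjamini-Hochberg adjustment, where 0.367% of all genes tested (36 of 9800) did. At a nominal p below 0.05, 5 of the 10 were higher in ZA (Nfkb1, Nfkb2, Nfkbia, Nfkbie and Nfkbiz) and 0 were lower, beside 7.5% of all genes higher and 4.85% lower. The ZA libraries lay above all Ctrl libraries for 6 of the 10, those 5 and Relb, and below them for 0, beside 11.4% of all genes above and 6.76% below. The mean on the log2 scale was higher in ZA for all 10 members and for 56.9% of all genes. The median log2 difference was 0.089 over the members, 0.084 over the subunits and 0.094 over the inhibitors, beside 0.010 over all genes tested. The inhibitors here include Nfkbiz, which had the largest difference of the 10 members (0.23). The split over all genes depended on scaling, since 60.7% of the genes with a nominal p below 0.05 were higher in ZA as deposited and 43.3% after each library was centred on its median. With that centring all 10 member differences kept a positive sign and 4 of them had a nominal p below 0.05, Nfkb2 no longer being one. The count of 5 became 3 without Ctrl 2 and 3 without ZA 2, and the 36 genes that passed the adjusted threshold in the whole table became between 0 and 25 when 1 library was left out.

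**Figure D2:**
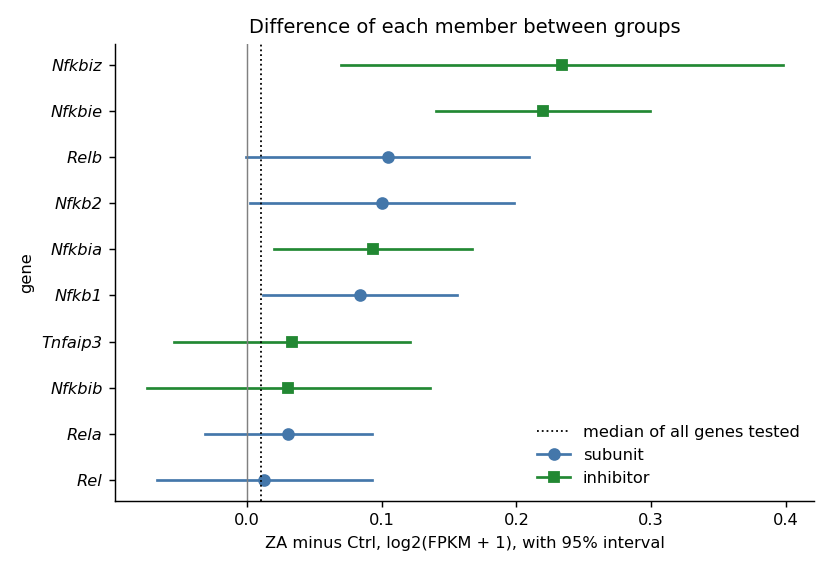
Difference between ZA and Ctrl for each member on the log2(FPKM + 1) scale (x axis), with the limma 95% confidence interval, subunits as circles and inhibitors as squares. Nfkbiz (0.23) and Nfkbie (0.22) stand to the right of the other 8, and the dotted line marks the median of all genes tested (0.010).

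Nfkbie encodes IkB epsilon, an inhibitor that holds Rel and Rela dimers in the cytoplasm. Its levels were 8.32, 8.86 and 8.64 FPKM in Ctrl 1, 2 and 3 and 10.3, 10.1 and 10.2 FPKM in ZA 1, 2 and 3. The lowest ZA library lay 1.19 FPKM above the highest Ctrl library, a gap larger than the SD of either group (0.273 in Ctrl, 0.128 in ZA, n = 3 each). The error from counting fragments alone was 3.24% of its level. The CVs of the groups, 3.17% in Ctrl and 1.26% in ZA, were no larger than that. The mean was 18.3% higher in ZA, with a log2 difference of 0.22 (SE 0.034, 95% interval 0.14 to 0.30). The nominal p-value was 0.000197 and the limma adjusted p-value 0.0510, just above the threshold, and by p-value Nfkbie ranked 37 of the 9800 genes. The adjusted p-value fell to 0.0387 when only the 6607 genes with a mean of at least 5 FPKM were tested and to 0.0458 with limma's voom on the recovered fragment counts. It reached 0.227 with no filter on low genes, and leaving out 1 library at a time gave adjusted p-values between 0.0814 and 0.2003. The difference itself stayed between 0.20 and 0.24 under all of these. With voom the SE of the difference was 0.051.

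Nfkbiz encodes IkB zeta, a nuclear member of the family that acts with NF-kB on a set of secondary response genes, including Il6 in macrophages. Its levels were 7.62, 8.02 and 8.56 FPKM in Ctrl and 8.82, 9.36 and 10.9 FPKM in ZA. The groups did not overlap, but ZA 3 stood 1.51 FPKM above the next library and the ZA values had a CV of 11%, the widest of the 10 members in either group. The log2 difference was 0.23 (SE 0.071, 95% interval 0.070 to 0.40), with a limma adjusted p-value of 0.249. Without ZA 3 the difference was 0.16, and without ZA 1 it was 0.29.

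Nfkbia encodes IkB alpha, the main cytoplasmic inhibitor and the best known feedback target of NF-kB. Its levels were 34.9, 33.8 and 32.4 FPKM in Ctrl and 35.5, 35.9 and 36.6 FPKM in ZA, without overlap but with a gap of only 0.586 FPKM. The log2 difference was 0.094 (SE 0.032, 95% interval 0.020 to 0.17) and the limma adjusted p-value 0.301. Nfkbib, which encodes IkB beta, had 11.7, 13.2 and 12.5 FPKM in Ctrl and 13.1, 12.4 and 12.8 FPKM in ZA. Its groups overlapped, the log2 difference was 0.031 (SE 0.046, limma adjusted p-value 0.826), and the sign turned without Ctrl 1 (-0.011). Exons of Nfkbib overlap exons of Sirt2 on the opposite strand in the GENCODE M21 annotation, and Sirt2 had a mean of 76.1 FPKM. Whether strand was used in counting is not given in the sources used here, and without it reads in the overlap cannot be told apart. Tnfaip3 encodes A20, a ubiquitin-editing enzyme that stops signalling upstream of IKK. Its levels were 10.04, 10.7 and 10.3 FPKM in Ctrl and 11, 10.5 and 10.3 FPKM in ZA, with overlapping groups and a log2 difference of 0.033 (SE 0.038, limma adjusted p-value 0.765). The interval for Tnfaip3 ran from -0.055 to 0.12, so a difference as large as that of Nfkbie lies outside it.

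**Figure D3:**
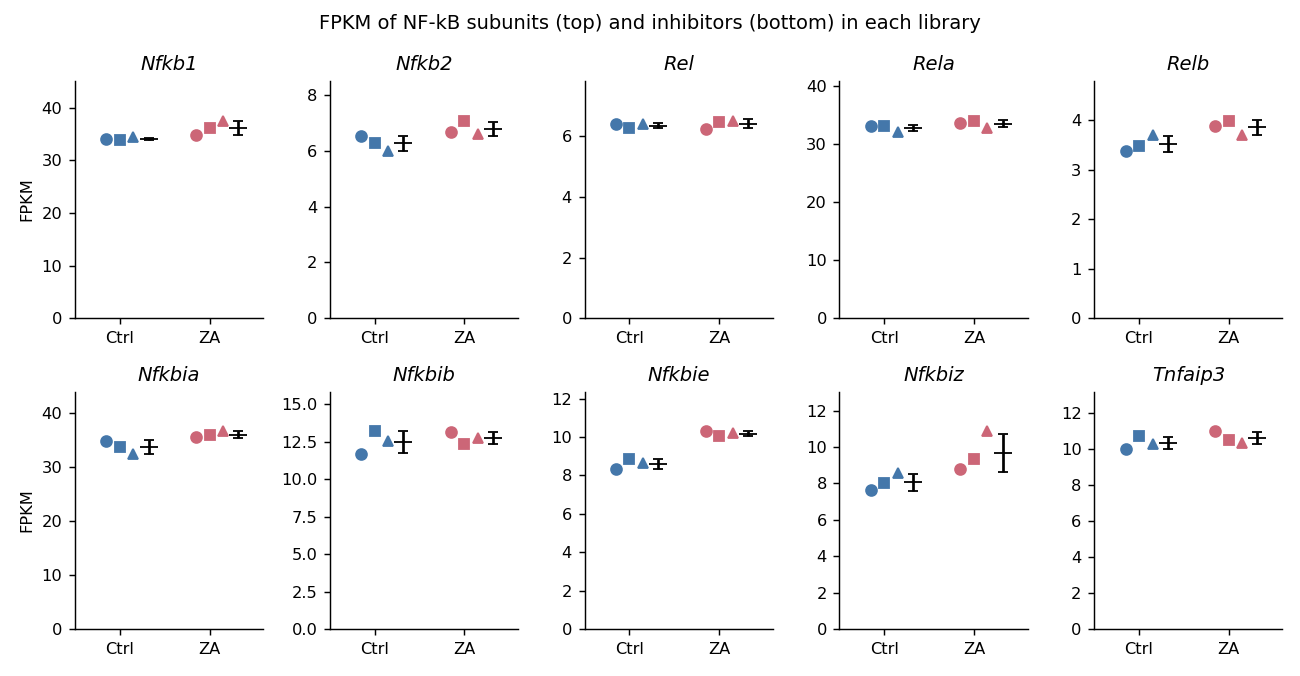
FPKM of the 5 subunits (top) and 5 inhibitors (bottom) in each library, with circles, squares and triangles for replicates 1, 2 and 3 and a black mark with bar for the mean and SD of each group (n = 3). Each y axis starts at 0 and has its own scale, and Nfkbie shows the widest separation between groups.

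Among the subunits, Nfkb1 and Nfkb2 encode the precursors p105 and p100, which are processed into the DNA-binding subunits p50 and p52 and whose uncut forms also act as inhibitors. Nfkb1 had 34.0, 33.9 and 34.3 FPKM in Ctrl and 34.8, 36.1 and 37.5 FPKM in ZA. The groups did not overlap, and ZA 1 lay 0.501 FPKM above the highest Ctrl library. The log2 difference of Nfkb1 was 0.084 (SE 0.031, limma adjusted p-value 0.341). Nfkb2, a gene of the noncanonical pathway that is itself induced by NF-kB, had 6.52, 6.26 and 6.01 FPKM in Ctrl and 6.69, 7.08 and 6.59 FPKM in ZA. Its groups were separated by 0.0695 FPKM, less than the SD of either, and its log2 difference was 0.10 (SE 0.043, limma adjusted p-value 0.397). Exons of Psd and of AC114539.1 overlap exons of Nfkb2 on the opposite strand. Psd had a mean of only 0.00899 FPKM, while AC114539.1 had no row, so its level is not known here.

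Relb, the usual partner of p52, had 3.38, 3.49 and 3.70 FPKM in Ctrl and 3.88, 3.997 and 3.71 FPKM in ZA. The lowest ZA and the highest Ctrl library of Relb differed by 0.00706 FPKM, and its log2 difference was 0.10 (SE 0.046, nominal p-value 0.0516, limma adjusted p-value 0.409). Rela encodes p65, the subunit with a strong transactivation domain that pairs with p50 in the canonical pathway. It had 33.0, 33.0 and 32.1 FPKM in Ctrl and 33.5, 34.0 and 32.8 FPKM in ZA, with overlapping groups and a log2 difference of 0.031 (SE 0.027, limma adjusted p-value 0.688). Rel encodes c-Rel, a subunit prominent in lymphoid and myeloid cells, and had 6.38, 6.25 and 6.39 FPKM in Ctrl and 6.25, 6.47 and 6.51 FPKM in ZA. Its log2 difference was 0.013 (SE 0.035, limma adjusted p-value 0.914), with a 95% interval from -0.067 to 0.093, and turned sign under quantile normalization (-0.0010). At this depth the counting error of the members was between 1.27% and 3.24% of the level, so the spread between libraries of Rel (CV 1.22% and 2.22%) was no larger than counting alone gives, while that of Nfkbiz in ZA exceeded its counting error of 2.64%.

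Summed over the 5 subunits, the level was 82.9 ± 0.397 FPKM in Ctrl and 86.7 ± 1.31 FPKM in ZA (SD, n = 3), and over the 5 inhibitors 73.2 ± 1.21 FPKM and 79.2 ± 1.36 FPKM. Every ZA library lay above every Ctrl library in both sums. The sums weight genes by level, most of all Nfkb1, Rela and Nfkbia, and so depend on the gene lengths described below. Ratios between members set these levels against each other within a library. In Ctrl libraries the ratio of Nfkbie to Rela was 0.252, 0.268 and 0.269, and ZA libraries had 0.307, 0.296 and 0.311, without overlap. For Nfkbia to Rela the Ctrl ratios were 1.06, 1.02 and 1.01 and the ZA ratios 1.06, 1.06 and 1.12, with the lowest ZA library barely above the highest Ctrl library. Between the inhibitors Nfkbie and Nfkbia, the Ctrl ratios were 0.239, 0.262 and 0.267 and the ZA ratios 0.291, 0.280 and 0.279, also without overlap. The ratio of Tnfaip3 to Nfkbia overlapped between the groups, with 0.308 ± 0.0172 for Ctrl libraries and 0.295 ± 0.0141 for ZA libraries (SD, n = 3). These ratios are descriptions without a test.

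By level, Nfkb1 (mean 35.1 FPKM over the 6 libraries), Nfkbia (34.8 FPKM) and Rela (33.1 FPKM) formed the highest group, and the ranges of neighbours in that order overlapped. Nfkbib followed at 12.6 FPKM and Tnfaip3 at 10.5 FPKM, each clear of the one above. The range of Nfkbie (9.40 FPKM) overlapped those of Tnfaip3 and of Nfkbiz (8.87 FPKM), the ranges of Nfkb2 (6.53 FPKM) and Rel (6.38 FPKM) overlapped, and Relb was lowest at 3.69 FPKM. This order depends on the length that each FPKM was divided by. The deposited values imply 4249 bases for Nfkb1, 11300 bases for Nfkb2 and 8706 bases for Relb, while the union of GENCODE M21 exons is 12061, 4584 and 3885 bases. With the GENCODE lengths, Nfkb1 would be at 12.4 FPKM, Nfkb2 at 16.1 FPKM, Relb at 8.27 FPKM and Rela, then the highest, at 36.3 FPKM. The comparison between ZA and Ctrl within a gene uses the same length on both sides.

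The genes around the members were grouped in 4 lists, none of whose tested genes passed an adjusted p-value of 0.05. Of the other IkB family genes, 3 of 3 were tested, and 1 was higher and 0 were lower at a nominal p below 0.05, beside 7.5% and 4.85% of all genes. A count over 3 genes cannot be read against these shares. That gene was Bcl3, which encodes a nuclear IkB protein that works with p50 and p52 dimers, at 14.03, 13.7 and 12.4 FPKM in Ctrl and 14.95, 14.5 and 15.1 FPKM in ZA (log2 difference 0.14, SE 0.046, limma adjusted p-value 0.284). Nfkbid, another nuclear IkB gene, had a log2 difference of 0.049, and Nfkbil1 had -0.027. The median of the list was 0.049.

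The IKK complex with its upstream kinases and adaptors, the machinery that releases NF-kB, had the narrowest range of differences of the 4 lists. All 17 genes were tested, with a median log2 difference of 0.016 and a range from -0.037 to 0.086. At a nominal p below 0.05, 1 was higher and 0 were lower, no more than the 7.5% and 4.85% of all genes. The gene past that threshold was Ikbke, an IKK-related kinase of the interferon response, at 44.6, 47.3 and 45.7 FPKM in Ctrl and 48.1, 49.3 and 48.8 FPKM in ZA (log2 difference 0.086, SE 0.029, limma adjusted p-value 0.284). Traf3, an adaptor that restrains the noncanonical pathway, followed at 0.081, Tradd, an adaptor of the TNF receptor, at 0.054, and Map3k8, a kinase bound by p105, at 0.043, none with a nominal p below 0.05.

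Of the ubiquitin editing partners and negative regulators, all 19 were tested and 17 had a positive difference, beside 56.9% of all genes, and the 17 became 14 with centring on the median and 15 with quantile normalization. At a nominal p below 0.05, 2 were higher and 0 lower, beside 7.5% and 4.85% of all genes, and the higher count became 1 under either scaling. The median of the list was 0.033. Birc3 encodes cIAP2, a ubiquitin ligase at the TNF receptor and a known NF-kB target. It had 13.3, 13.1 and 13.0 FPKM in Ctrl and 15.1, 14.4 and 14.7 FPKM in ZA, without overlap, and a log2 difference of 0.15 (SE 0.030, nominal p-value 0.000884, limma adjusted p-value 0.0938). Tnip3, an A20-binding protein, had a log2 difference of 0.15 (SE 0.063, limma adjusted p-value 0.401) with overlapping groups. Tnfaip8l2 stood at 0.059 and Tnip2, another A20-binding protein, at -0.060, both with a nominal p above 0.05.

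Of 40 target genes known from macrophages, 30 had a mean of at least 1 FPKM and were tested. Below that level and untested were Il1b, Il6, Il12b, Cxcl1, Cxcl2, Ptgs2, Nos2, Mmp9, Csf2 and Csf3. Among these, Il1b had 0.81, 0.76 and 0.65 FPKM in Ctrl and 0.92, 1.38 and 1.36 FPKM in ZA. The ZA libraries of Cxcl2 also lay above all Ctrl libraries (means 1.13 and 0.72 FPKM), and those of Mmp9 lay below them (0.67 and 1.06 FPKM). The groups of the other untested genes overlapped. At a nominal p below 0.05, 4 were higher (Saa3, Tnf, Irf1 and Tlr2) and 8 were lower, beside 7.5% of all genes higher and 4.85% lower. The median log2 difference was 0.0081 and its sign turned when libraries were centred on their median (-0.0041). Saa3, which encodes an acute phase serum amyloid protein, had 2.26, 2.49 and 3.65 FPKM in Ctrl and 6.12, 10.5 and 15.9 FPKM in ZA. Its log2 difference of 1.57 (SE 0.28, limma adjusted p-value 0.0761) was the largest of the list, and the ZA libraries differed among themselves by more than the whole Ctrl range. Il1a, the gene of the cytokine interleukin-1 alpha, had 2.55, 2.73 and 2.36 FPKM in Ctrl and 1.93, 1.83 and 1.85 FPKM in ZA (log2 difference -0.31, SE 0.052, limma adjusted p-value 0.0699). Vcam1, an adhesion molecule, had 6.62, 5.59 and 5.23 FPKM in Ctrl and 4.19, 4.49 and 4.35 FPKM in ZA (log2 difference -0.35, SE 0.071, limma adjusted p-value 0.103). Plau, the gene of the protease urokinase, had 22.7, 23.3 and 23.9 FPKM in Ctrl and 20.7, 20.8 and 18.4 FPKM in ZA (log2 difference -0.22, SE 0.047, limma adjusted p-value 0.113). Over the 30 tested genes, the ZA libraries lay above all Ctrl libraries for 4 and below them for 8, beside 11.4% and 6.76% of all genes. Saa3, Il1a, Vcam1 and Plau were among these, but they were picked for the smallest p-values of the list, which favours groups that do not overlap.

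**Figure D4:**
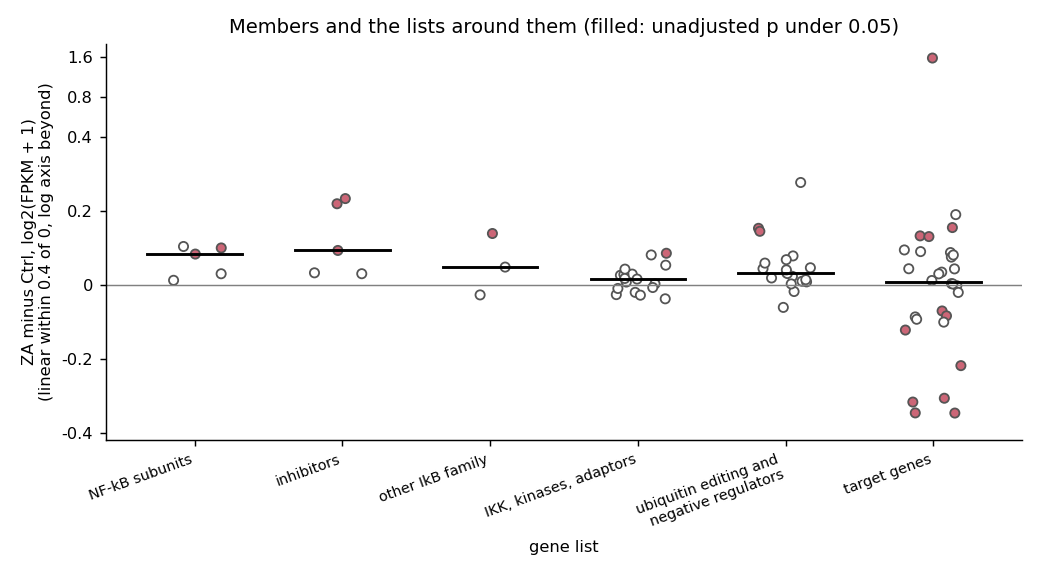
Difference between ZA and Ctrl on the log2(FPKM + 1) scale (y axis, linear within 0.4 of 0 and logarithmic beyond) for each tested gene of the subunits, the inhibitors and the 4 lists, with a line at each median and filled points for a nominal p below 0.05. The subunits and inhibitors lie above 0 throughout, and the target genes spread from -0.35 to 1.57 on both sides of it.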

How the data were processed

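RNA-seq of 3 Ctrl and 3 ZA libraries of mouse BMDMs was analysed from the authors' deposited table of FPKM values for each gene and library. The aligner, counting program and annotation are not given in the sources used here, and the submitters' processing notes name build mm9. The labels name the VAHTS Universal V10 kit and also a SMARTER kit. Of the 35434 deposited rows only 11 kept their separators, and the remaining ones were split again, either where the digits allowed 1 reading (20637 rows) or, among several readings, by the one giving whole fragments at a gene length between 20 and 250000 bases by a margin of 3 powers of 10 (14641 rows, all 10 members among them). The 11 intact rows were restored identically, 145 rows were left out, and the restored rows hold at least 99.71% of each library's fragments.

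Genes with a mean of at least 1 FPKM entered limma 3.58.1 (R 4.3.3, eBayes with a trend) on the log2(FPKM + 1) scale, without the replicate number. Cutting and fit were tested on simulated data. Libraries of a group were not duplicates (chi-square per gene between 3.52 and 9.73). A gene of median length with 3 fragments, the floor of detection, has 0.0210 FPKM, and such limits cover counting error only. The named genes are all members, up to 4 tested genes of each list with the smallest p-values, and the untested target genes. Where 5 or fewer members or list genes passed a p-value threshold in the fit as reported, they are named. Cell type markers are given mainly as counts and sums. Members and lists were chosen with earlier results of these data known. Alternatives were a pseudocount of 0.1, no filter, a mean of at least 5 FPKM, centring, quantile normalization, no trend, the replicate block, voom on recovered fragments with TMM, and leaving out each library. GENCODE lengths were added after seeing the data. Python 3.11.15, NumPy 2.4.6, pandas 2.3.3 and Matplotlib 3.10.9 were used.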

Additional observations from a re-analysis of the deposited data

How the results depend on the processing

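The number of genes with an adjusted p-value under 0.05 was 36 as reported, 1 with no filter, 1 with no trend, 20 with quantile normalization, 78 with the replicate block and 123 with voom, and between 0 (limma without ZA 2, where 557 genes were higher and 416 lower at a nominal p below 0.05) and 25 (without ZA 1) when 1 library was left out. Leaving out Ctrl 1 or Ctrl 2 gave 1, Ctrl 3 gave 6 and ZA 3 gave 4. For the members, 0 passed as reported and in every fit without 1 library, 1 (Nfkbie) with a mean of at least 5 FPKM and 1 (Nfkbie) with voom. The count of members higher in ZA at a nominal p below 0.05, 5 as reported, was between 3 and 4 when 1 library was left out, with 3 without Ctrl 2 and 3 without ZA 2. The sign turned for Rel under quantile normalization (-0.0010) and for Nfkbib without Ctrl 1 (-0.011, to 0.069 without Ctrl 2). In the list of ubiquitin editing partners and negative regulators, the count higher in ZA went from 2 to 1 with centring and 1 with quantile normalization, and the median of the IKK list went to 0.0039 with centring. The cause of these shifts was not tested. The sources used here do not say whether equal replicate numbers in both groups mark a pairing. Correlations of same-numbered deviations were 0.284, 0.0393 and 0.280 across genes. Each of the 6 libraries correlated best with its own number, a hint from the data only. The margin was narrow for Ctrl 2, which had 0.0334 with ZA 3. The deviations sum to 0 within a group, so these correlations are not separate observations. The replicate block left the member counts at 0 and 5, with Nfkbie at an adjusted p-value of 0.0565 and Nfkbiz at 0.0558.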
